A study of Mus musculus with 4 samples.

Results

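Serpins are a family of proteins that mostly inhibit serine proteases, and in some members cysteine proteases. In an inhibitory serpin an exposed loop acts as bait, the protease cuts the loop, and the cut serpin changes shape and traps the enzyme. Other members have lost this activity and serve as chaperones, hormone carriers or signalling proteins. The family is divided into clades named by letter, with clade A mainly secreted into plasma and clade B mainly kept inside cells. In skin, clade B members are known from the keratinocytes of the interfollicular epidermis and the hair follicle.

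The members were the rows of the gene table whose symbol is Serpin followed by a clade letter from a to i, a number and at most 1 further letter. They numbered 64 of the 55401 genes in the table, with 25 in clade A, 28 in clade B, 3 in clade E, 2 each in clades F and I, and 1 each in clades C, D, G and H. Of the 64 members, 47 had a count in at least 1 library and 17 had none. A filter on low counts left 25 members to test, of which 20 had both libraries of both diets over its limit of 1.1 CPM (counts scaled to library size by the trimmed mean of M values, TMM). The other 5 had fewer than 2 normal diet libraries over it, and for 2 of those, Serpina3j and Serpinb12, fewer than 2 high-fat diet libraries were over it as well. Serpina3b, Serpina3g and Serpinb3b therefore entered the test through the high-fat diet libraries.

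The libraries were made from total RNA of hair follicle stem cells of C57BL/6 mice whose follicles were in anagen, when hair grows. The mice had received a high-fat diet for 4 months or a normal diet, and each diet had 2 libraries. Age, sex, how the cells were isolated and whether the 2 libraries per diet are from different mice are not given in the labels, so p-values reflect the spread among 4 libraries, part or all of which may be technical. Total counts lay between 8590570 and 9940848 per library.

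The labelled cell type was checked against marker genes. All 12 listed bulge stem cell and basal markers had counts, among them Krt15, Cd34, Lgr5, Sox9 and Lhx2. Of the 11 tested, 7 stood below the normal diet in both high-fat diet libraries, an order found for 21.9% of all genes. These were Cd34, Lgr5, Sox9, Lhx2, Nfatc1, Tcf3 and Tcf7l2. The other 4, Krt5, Krt14, Krt15 and Itga6, stood above it (22.7% of all genes). Krt14 alone passed the edgeR test described below (log2 fold change 0.70, edgeR adjusted p = 0.0332). Suprabasal epidermal markers, 9 of 9 with counts, summed to 4109 and 5065 CPM in the high-fat diet libraries, against 1339 and 3023 CPM in the normal diet libraries. Leukocyte markers summed to 40.1 and 45.2 CPM in the high-fat diet libraries, against 17 and 35.4 CPM in the normal diet libraries, with Itgam at 0. Endothelial markers summed to 20.3 and 24.1 CPM in the high-fat diet libraries and 11.8 and 15.3 CPM in the normal diet libraries, and 4 of 5 adipocyte markers were at 0. Sebocyte markers summed to 77.1 and 74.7 CPM on the high-fat diet and 72.0 and 83.8 CPM on the normal diet. For melanocyte markers the sums were 36.4 and 29.3 CPM on the high-fat diet and 48.0 and 28.0 CPM on the normal diet. The 5 hepatocyte markers, Alb, Apoa1, Ttr, Fga and Ahsg, had 744 counts together in the first normal diet library and 0 in each of the other 3 libraries. In bulk RNA, fewer cells of a type and less RNA per cell cannot be told apart.

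The intracellular clade B members Serpinb2 and Serpinb7 rose on the high-fat diet, and no tested member was called lower. These 2 of 25 tested members were called higher by edgeR's quasi-likelihood test (adjusted p under 0.05 over all genes tested), where 1.12% of all 14479 tested genes were called higher and 1.35% in either direction. Of the 25 members 0 were called lower, where 0.228% of all genes were, and 0 had an unadjusted p under 0.05 in that direction. In either direction 6 members, all higher, had an unadjusted p under 0.05, a level reached by 13.3% of all genes. DESeq2 also called 2 members higher and 0 lower, where it called 274 of all genes higher and 115 lower. The limma fit called 0 members in either direction, but it called only 2 of all genes, so its 0 says little about the members. Log2 fold changes were positive for 20 of 25 members and the median was 0.53, against 0.00 and 50.1% positive over all genes tested. Fitted with no count filter, 26 of 47 members were positive and their median was 0.23, against 0.04 over all genes. Without Serpina3b, Serpina3g and Serpinb3b, whose entry through the high-fat diet libraries favours a positive value, 17 of 22 were positive and the median was 0.47. The 2 diets did not overlap in CPM for 12 of the 25, all on the high-fat diet above, where 22.7% of all genes had that order and 44.6% were separate in either direction. Without the same 3 members it was 10 of 22. The opposite order was found for 0 of 25 members and 21.9% of all genes. Calls over all genes depended on the scaling, with 162 higher and 33 lower here, 88 and 3 after scaling to equal sums of TPM, and 132 and 65 with library totals only. Serpinb2 and Serpinb7 were called under each of these scalings. With 1 normal diet library left out, the spread comes from the high-fat diet pair alone, and edgeR called 0 of all genes without the first and 3 without the second, none of them serpins. The loss of the serpin calls there says little about these genes, whose log2 fold changes stayed at 1.92 and 3.2 for Serpinb2 and at 1.58 and 2.31 for Serpinb7. Serpinb7, unlike Serpinb2, also lost its call without either high-fat diet library.

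**Figure D1:**
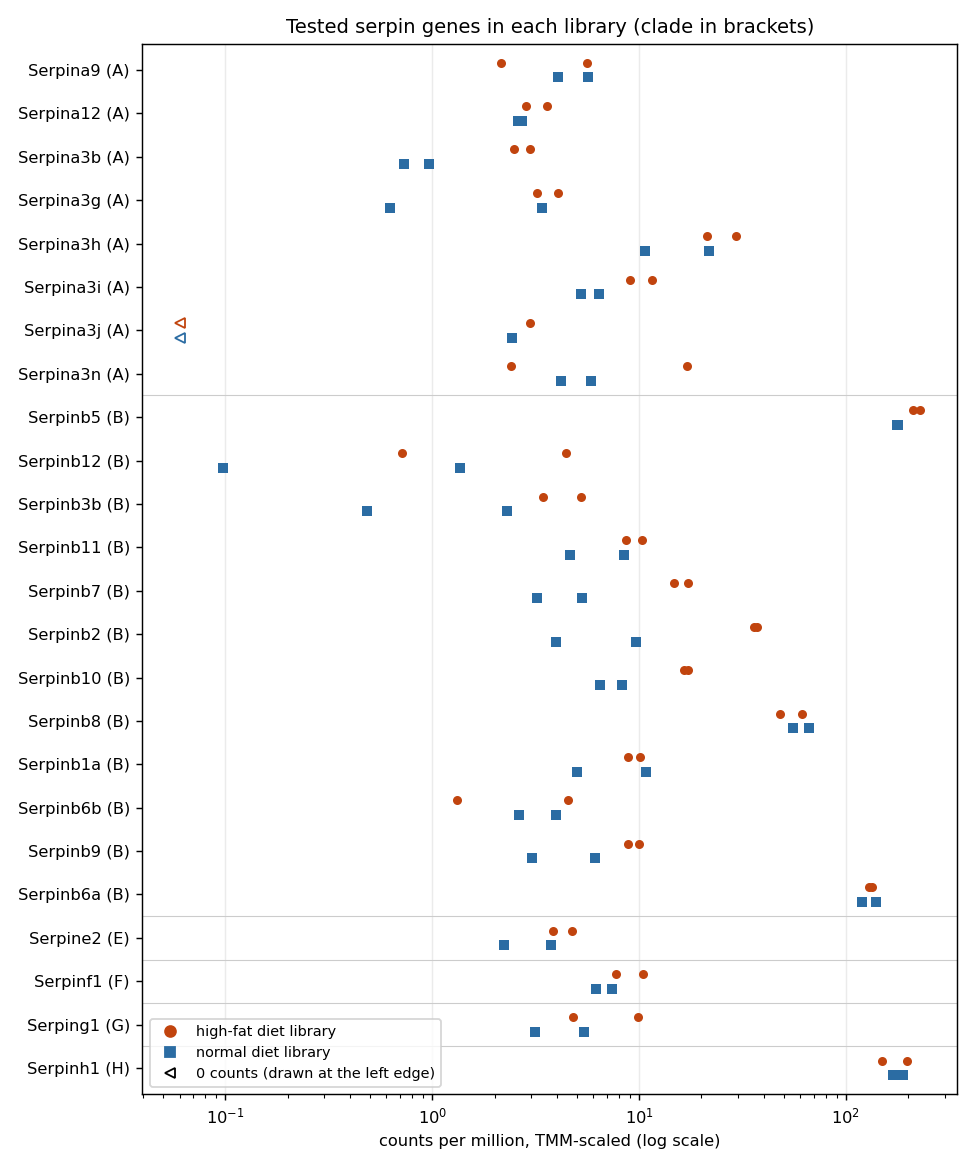
Expression of tested serpin genes in each library, in TMM-scaled CPM on a log axis, with a circle for each high-fat diet library and a square for each normal diet library. Serpinb2 stood at 36.1 and 37.2 CPM on the high-fat diet, to the right of 3.97 and 9.71 CPM on the normal diet. Among abundant members, Serpinh1 and Serpinb6a overlapped between the diets and Serpinb5 did not.

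Compared between genes by FPKM (the authors' value, normalised to exon length and library total), a few members made up most of the family's expression. Serpinb5, which encodes maspin, an epithelial serpin without known inhibitory activity, ranged from 65.8 to 80.5 FPKM over the 4 libraries. Serpinh1, which encodes the collagen chaperone HSP47, ranged from 59.5 to 80.2 FPKM and overlapped with Serpinb5. Serpinb6a, a relative of the human cathepsin G inhibitor SERPINB6, followed at 22.8 to 26.3 FPKM without overlap with either neighbour in the order. Together these 3 genes took 64.2% and 63.3% of summed serpin FPKM in the high-fat diet libraries, against 73.0% and 70.9% in the normal diet libraries. Below them the other tested members formed a continuous series in which each gene's range overlapped with the next, from Serpina3h at 7.72 to 19.9 FPKM down to Serpine2 at 0.28 to 0.55 FPKM.

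Of the 28 clade B genes, 12 lie together on chromosome 1 between positions 106861173 and 107610484 (coordinates of the table, which match GRCm38), and 16 lie on chromosome 13. No other tested gene lies inside the chromosome 1 interval. The upstream sequences of 4 neighbours in this interval are shown because Serpinb7, Serpinb2 and Serpinb10 had the largest fold changes per standard error in the family, and Serpinb8, next to them, did not. Each is the 250 bases before a RefSeq transcription start (GRCm38.p6), written 5′ to 3′ on the plus strand, with capitals for matches to the AP-1 motif TGANTCA and the TATA motif TATAAA on either strand. The Serpinb7 window lies inside that gene's span in the table (107399655 to 107452689), not before the whole gene. Of the Serpinb7 transcripts in GENCODE, 0 held the 50 bases after this start and 1 held the first 30 of them.
Serpinb7, chr1:107422439-107422688: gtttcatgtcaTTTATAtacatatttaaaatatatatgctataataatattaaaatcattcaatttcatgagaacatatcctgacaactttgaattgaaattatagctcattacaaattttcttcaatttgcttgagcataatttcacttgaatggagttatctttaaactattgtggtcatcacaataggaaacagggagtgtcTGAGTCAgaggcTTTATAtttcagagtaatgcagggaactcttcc
Serpinb2, chr1:107511173-107511422: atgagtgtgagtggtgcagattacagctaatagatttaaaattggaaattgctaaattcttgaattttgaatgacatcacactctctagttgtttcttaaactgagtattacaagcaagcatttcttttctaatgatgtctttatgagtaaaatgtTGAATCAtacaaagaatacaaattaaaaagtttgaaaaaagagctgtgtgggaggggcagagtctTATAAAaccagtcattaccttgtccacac
Serpinb10, chr1:107528753-107529002: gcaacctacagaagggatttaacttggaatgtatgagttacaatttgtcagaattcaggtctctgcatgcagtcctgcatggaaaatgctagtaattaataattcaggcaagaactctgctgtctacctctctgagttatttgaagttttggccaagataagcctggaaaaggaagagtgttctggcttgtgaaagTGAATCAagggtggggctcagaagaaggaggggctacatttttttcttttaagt
Serpinb8, chr1:107589756-107590005: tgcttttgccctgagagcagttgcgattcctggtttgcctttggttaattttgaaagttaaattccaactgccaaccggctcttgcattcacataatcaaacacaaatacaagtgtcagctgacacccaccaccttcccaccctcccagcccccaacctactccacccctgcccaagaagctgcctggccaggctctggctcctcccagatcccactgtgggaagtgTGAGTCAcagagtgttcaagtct
The AP-1 motif is the site known to bind Jun and Fos proteins. Each of the 4 windows held 1 match, which ended 38 bases before the start in Serpinb7, 87 in Serpinb2, 47 in Serpinb10 and 16 in Serpinb8. A TATA match ended 27 bases before the start in Serpinb7, with another at 233, and 23 in Serpinb2, and these 250 bases held none in Serpinb10 or Serpinb8. Over all 32817 windows of this length in the RefSeq table, 6.75% held TGANTCA and 12.4% held TATAAA. The chromosome 1 clade B members had 13 windows, of which 8 held TGANTCA, upstream of 7 of 11 members, namely the 4 above with Serpinb5, Serpinb12 and Serpinb11. The 8 include overlapping windows of Serpinb2 with the same site, which is thus counted more than once. The remaining serpins had 50 windows, of which 4 held TGANTCA, all upstream of antitrypsin genes with similar sequences. The motif was 1 of 5 searched, on both strands, and was present upstream of genes that were not called as well. The others, the NF-kB motif (GGGA, 4 N, then CC), TTNNGNAA of C/EBP and the E-box CANNTG, were found in 17.6%, 36.8% and 66.2% of all windows and in 8, 41 and 37 of the 63 serpin windows. RefSeq windows were found for 54 of the 64 members.

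Serpinb2, the plasminogen activator inhibitor PAI-2, which inhibits urokinase and is known from differentiating keratinocytes, had 304 and 312 counts in the high-fat diet libraries, against 41 and 93 in the normal diet libraries. The high-fat diet libraries were close to each other and both were above the normal diet libraries, which differed more than 2-fold between themselves. Mean expression was 36.6 ± 0.804 CPM on the high-fat diet and 6.84 ± 4.06 CPM on the normal diet (SD, n = 2 libraries each). The fold change of 5.38 corresponds to 2.43 on the log2 scale, standard error 0.35 (adjusted p = 0.0082 by edgeR), the 35th smallest p of 14479 genes. Without the first normal diet library the log2 fold change was 1.92 and without the second it was 3.2, and the call was lost in both cases (edgeR adjusted p = 0.456 and 0.139, in a range from 3.04e-14 to 0.456 over 13 alternatives).

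Serpinb7, which encodes megsin and is mutated in a human palmoplantar keratosis, had 124 and 144 counts in the high-fat diet libraries, against 33 and 51 in the normal diet libraries. The diets were separate. Mean expression was 15.9 ± 1.74 CPM on the high-fat diet and 4.26 ± 1.5 CPM on the normal diet (SD, n = 2), a fold change of 3.74, or 1.9 on the log2 scale with standard error 0.37 (edgeR adjusted p = 0.0329). The log2 fold change stayed between 1.58 and 2.31 when any 1 library was left out, and the adjusted p was over the threshold each time (edgeR adjusted p between 0.0902 and 0.464, in a range from 1.11e-04 to 0.464 over 13 alternatives). The summed suprabasal markers given above were higher in both high-fat diet libraries and lowest in the first normal diet library, a sum made up mostly of Krt10 and Krt1. Of the 9 markers edgeR called 3 higher, Dsg1a, Krt10 and Krtdap, and 1 lower. The lower one was Flg, the filaggrin gene, at 20.1 and 34.1 CPM on the high-fat diet and 55 and 206 CPM on the normal diet (log2 fold change -2.27; edgeR adjusted p = 0.0413), and Lor and Calml3 had a log2 fold change of 0.05 each. The part of these markers in the values of Serpinb2 and Serpinb7 was not tested.

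Serpinb10, known as bomapin in human blood cells and annotated in GENCODE as a polymorphic pseudogene, had 146 and 138 counts in the high-fat diet libraries and 67 and 79 in the normal diet libraries. The diets were separate, with 16.9 ± 0.612 CPM on the high-fat diet and 7.37 ± 1.24 CPM on the normal diet (SD, n = 2). Its log2 fold change of 1.20 had a standard error of 0.31 and missed the threshold (edgeR adjusted p = 0.0948). With the replicate number as a block it passed (edgeR adjusted p = 0.0455, in a range from 0.0281 to 0.475 over 13 alternatives). Serpinb10 begins inside Serpinb2, and both are on the plus strand. The overlap of 6476 bases, positions 107529003 to 107535478, contains 291 exonic bases of both genes, and 10.4% of the 50-base stretches in Serpinb2 transcripts also occur in Serpinb10. Reads from this overlap leave the separate values of the 2 genes uncertain.

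The squamous cell carcinoma antigen relative Serpinb3b had 29 and 44 counts on the high-fat diet and 5 and 22 on the normal diet. Its diets were separate and its log2 fold change was 1.64 ± 0.78 (SE), which did not pass (edgeR adjusted p = 0.393). Leaving out 1 normal diet library at a time gave 0.92 (first left out) and 3.13 (second left out). Of its 50-base stretches 14.7% occur in other genes, mainly the overlapping Serpinb3c. Serpinb3a, Serpinb3c and Serpinb3d had no count. Serpinb12, an inhibitor of trypsin-like proteases, had 6 and 37 counts on the high-fat diet against 1 and 13 on the normal diet. These overlapped, and its log2 fold change of 1.81 had a standard error of 1.16.

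Serpinb11 had 8.66 and 10.3 CPM on the high-fat diet, against 4.65 and 8.46 CPM on the normal diet. The diets were separate by a small margin, with a log2 fold change of 0.53 ± 0.41 (SE; edgeR adjusted p = 0.640). Serpinb5 had 229 and 212 CPM on the high-fat diet and 178 and 177 CPM on the normal diet, 1.24-fold or 0.32 ± 0.12 (SE) on the log2 scale, and was not called either (edgeR adjusted p = 0.285). Serpinb8, known in humans as an inhibitor of furin, had 48.1 and 61.5 CPM on the high-fat diet and 66.1 and 55.3 CPM on the normal diet, and the diets overlapped. Serpinb13, an inhibitor of cathepsins L and K known from keratinocytes, had 3 and 1 counts on the high-fat diet and 0 on the normal diet, too few to test.

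**Figure D2:**
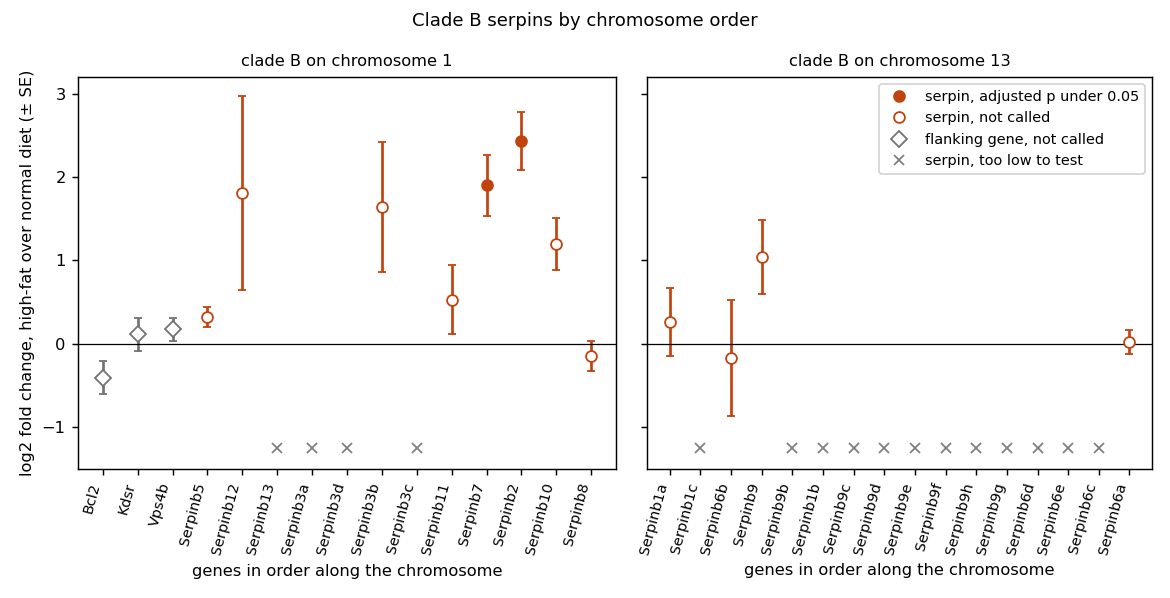
Log2 fold changes of clade B serpins, high-fat over normal diet, with standard errors, in gene order along chromosome 1 with the 3 nearest tested genes before the interval, and along chromosome 13. Serpinb7 and Serpinb2 are the filled points at 1.9 and 2.43, and the flanking Bcl2, Kdsr and Vps4b lie between -0.41 and 0.17.

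Along chromosome 1 the fold changes were not uniform. The 3 tested genes before the interval, Bcl2, Kdsr and Vps4b, had log2 fold changes of -0.41 ± 0.20, 0.11 ± 0.20 and 0.17 ± 0.14 (SE), and none passed the edgeR test. Summed over the 12 chromosome 1 members, expression was 359 and 364 CPM on the high-fat diet, against 263 and 268 CPM on the normal diet. The abundant Serpinb5 and Serpinb8 had the smallest absolute log2 fold changes of the 8 tested members there, at 0.32 and -0.15. Leaving them out therefore raises the ratio between the diets by construction, while the difference in CPM becomes smaller. The sums were then 81.3 and 90.9 CPM on the high-fat diet and 18.9 and 35.4 CPM on the normal diet. The 16 chromosome 13 members summed to 158 and 148 CPM on the high-fat diet and 139 and 152 CPM on the normal diet, which overlapped. That sum was not trimmed in the same way, and most of it was Serpinb6a, at 133 and 129 CPM on the high-fat diet and 119 and 139 CPM on the normal diet. An exact two-sided permutation test over 2 against 2 libraries cannot go below p = 0.333, which is the value for both chromosome 1 sums. The median log2 fold change was 1.42 over 8 tested members on chromosome 1 (1.2 over 7 without Serpinb3b) and 0.14 over 4 on chromosome 13. The difference between the chromosomes was not tested.

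On chromosome 13, Serpinb9, which protects cells against granzyme B, had 9.97 and 8.83 CPM on the high-fat diet and 6.10 and 3.03 CPM on the normal diet. The diets were separate, but the log2 fold change of 1.04 ± 0.44 (SE) did not pass (edgeR adjusted p = 0.339), and without the second normal diet library it was 0.62, against 1.63 without the first. Its 7 relatives Serpinb9b to Serpinb9h had no count. Serpinb1a, an inhibitor of neutrophil elastase, had 10.1 and 8.83 CPM on the high-fat diet and 10.8 and 5.01 CPM on the normal diet. Serpinb6a had 133 and 129 CPM on the high-fat diet and 119 and 139 CPM on the normal diet. Serpinb6b had 4.51 and 1.31 CPM on the high-fat diet and 2.62 and 3.97 CPM on the normal diet. The diets overlapped for these 3 genes. For Serpinb6a, 25.1% of 50-base stretches occur in other genes, mainly Nqo2 and other neighbours on the opposite strand. Whether counting used strand is not given in the sources used here, so its value may include reads of those genes. Serpinb1b, Serpinb1c, Serpinb6c, Serpinb6d and Serpinb6e had at most 6 counts in any library. Of the 4 tested chromosome 13 members edgeR called 0, with 1 at an unadjusted p under 0.05 (13.3% of all genes). DESeq2 and limma, with 389 and 2 calls over all genes, also called 0 of these 4.

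**Figure D3:**
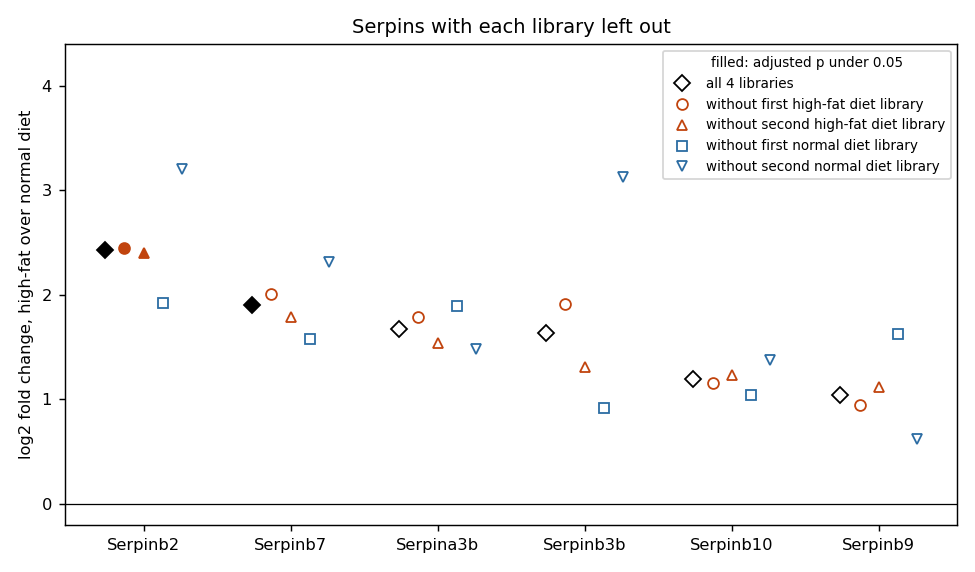
Log2 fold changes of the 6 members that were called or whose diets were separate with a log2 fold change of at least 1, fitted with all 4 libraries and with each library left out, where filled symbols mark an adjusted p under 0.05. Serpinb2 stayed filled without either high-fat diet library, at 2.45 and 2.40, and not without either normal diet library, at 1.92 and 3.2.

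The secreted clade A had 25 genes, 20 of them with counts and 8 tested. edgeR called 0 of these 8 in either direction, with 1 at an unadjusted p under 0.05 (13.3% of all genes). DESeq2 and limma, with 389 and 2 calls over all genes, also called 0 of the 8. The 8 were 6 members of the antichymotrypsin-like Serpina3 group on chromosome 12, Serpina9 and Serpina12. Serpina3h, annotated in GENCODE as a transcribed pseudogene, was the most abundant, with 249 and 178 counts in the high-fat diet libraries and 110 and 209 in the normal diet libraries. The diets overlapped, and the log2 fold change was 0.65 ± 0.33 (SE; edgeR adjusted p = 0.430). Its neighbour Serpina3i had 98 and 76 counts on the high-fat diet and 66 and 50 on the normal diet, which did not overlap (log2 fold change 0.83 ± 0.37, SE; edgeR adjusted p = 0.365). Of the 50-base stretches 21.9% in Serpina3h and 15.9% in Serpina3i occur in other genes, mostly of this group, so their separate values are uncertain.

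Serpina3n, an antichymotrypsin-like inhibitor induced in inflammation, was high in 1 library, with 143 and 20 counts in the high-fat diet libraries against 43 and 56 in the normal diet libraries. The second high-fat diet library was thus the lowest of the 4. Its log2 fold change of 0.95 ± 0.67 (SE) became -1.06 when the first high-fat diet library was left out and 1.76 when the second was. Serpina3b had 21 and 25 counts on the high-fat diet and 10 and 7 on the normal diet, separate at low counts (log2 fold change 1.67 ± 0.80, SE; edgeR adjusted p = 0.401). Serpina3g, an intracellular inhibitor of cysteine cathepsins in mouse blood cells, had 27 and 34 counts on the high-fat diet and 35 and 6 on the normal diet, so the second normal diet library alone was low. Serpina3j had 0 and 25 counts on the high-fat diet and 25 and 0 on the normal diet. Of the remaining Serpina3 genes, Serpina3f had 9 counts in each high-fat diet library and 0 and 3 in the normal diet libraries, Serpina3c had at most 1 and Serpina3a none.

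Serpina12, which encodes vaspin, an adipokine and inhibitor of kallikrein 7, had 24 and 30 counts on the high-fat diet and 28 and 25 on the normal diet. Scaled to library size these were 2.85 and 3.58 CPM on the high-fat diet, against 2.71 and 2.61 CPM on the normal diet, a log2 fold change of 0.27 ± 0.62 (SE; edgeR adjusted p = 0.911). Serpina9, a serpin known from germinal centre B cells, had 47 and 18 counts on the high-fat diet and 42 and 54 on the normal diet, which overlapped. Summed over clade A, expression was 74.9 and 51.2 CPM on the high-fat diet and 48.1 and 44.1 CPM on the normal diet (exact two-sided permutation p = 0.333, the smallest possible). The high-fat diet libraries differed from each other by more than the diet means did.

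Of the 22 members with counts that were too low to test, 7 had counts in the first normal diet library only. They were Serpina1c, Serpina1d, Serpina3k, Serpina3m, Serpina7, Serpina11 and Serpind1, the last of which encodes heparin cofactor II and overlaps Pi4ka on the opposite strand. That is 31.8% of these members, where 10.2% of the 10311 counted but untested genes of the table were confined to the same library. The antitrypsin genes Serpina1a to Serpina1e, whose products inhibit neutrophil elastase in plasma, summed with the uncounted Serpina1f to 7 and 10 counts in the high-fat diet libraries, against 106 and 10 in the normal diet libraries. Serpina1e led with 48 counts and Serpina1b followed with 31 in the first normal diet library. Between 29.5% and 79.3% of the 50-base stretches of these 5 genes occur in other genes, and Serpina1b and Serpina1d overlap on the same strand, so their separate counts are uncertain. In the same library Alb had 537 counts, Ahsg 90, Apoa1 59, Fga 38 and Ttr 20, all at 0 elsewhere. The part of these hepatocyte transcripts in the clade A values was not tested.

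**Figure D4:**
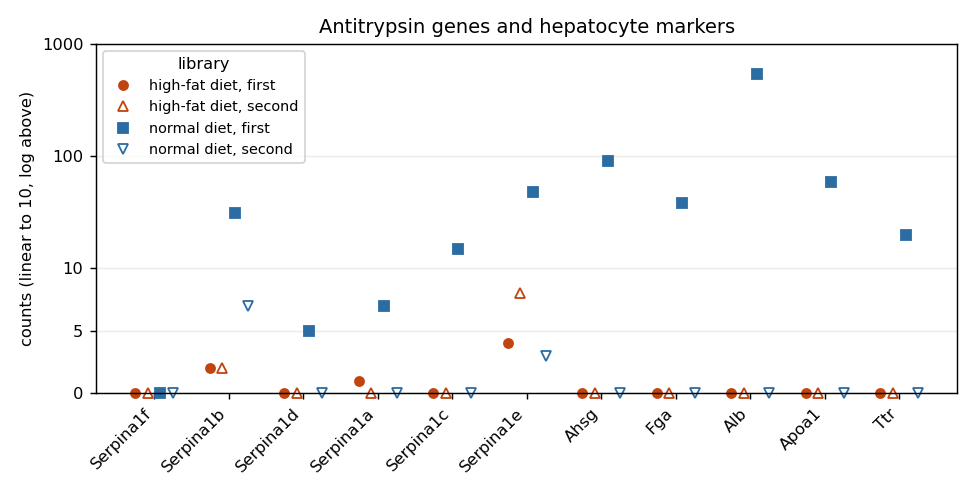
Counts of the antitrypsin genes Serpina1a to Serpina1f and of 5 hepatocyte markers in each library, on an axis that is linear to 10 and logarithmic above. The first normal diet library, shown as filled squares, held 106 antitrypsin counts and 744 marker counts, while the markers stood at 0 in the other 3 libraries.

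Other plasma serpins were near their detection limit, where 3 counts in a library correspond to 0.291 to 0.358 CPM, a limit that covers counting error only. Serpinc1, antithrombin, had 1 and 5 counts in the high-fat diet libraries and 10 and 9 in the normal diet libraries, and 33.6% of its 50-base stretches occur in other genes, mainly the overlapping Zbtb37. Serpinf2, the plasmin inhibitor, had 0 and 1 counts on the high-fat diet and 5 and 1 on the normal diet. Serpina10, the protein Z-dependent protease inhibitor, had 5 and 4 counts on the high-fat diet and 2 and 2 on the normal diet. In the brain serpin gene Serpini1 there were 0 and 1 counts on the high-fat diet and 0 and 7 on the normal diet. Serpina5, Serpina6, Serpina16, Serpine3 and Serpini2 had no count in any library.

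In clade E, Serpine2, protease nexin 1, an inhibitor of thrombin and urokinase known from the dermal papilla, had 4.75 and 3.82 CPM on the high-fat diet, against 2.23 and 3.76 CPM on the normal diet, a log2 fold change of 0.52 ± 0.58 (SE; edgeR adjusted p = 0.769). The diets were separate by a small margin, and the gene was called by none of edgeR, DESeq2 and limma.

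In the extracellular clades F and G, Serpinf1, which encodes the anti-angiogenic factor PEDF, had 10.4 and 7.75 CPM on the high-fat diet and 6.20 and 7.41 CPM on the normal diet (log2 fold change 0.42 ± 0.38, SE; edgeR adjusted p = 0.698). Serping1, the C1 inhibitor of the complement and contact systems, had 9.85 and 4.77 CPM on the high-fat diet and 5.42 and 3.13 CPM on the normal diet. These overlapped, with a log2 fold change of 0.77 ± 0.51 (SE; edgeR adjusted p = 0.573). Fibroblast and dermal papilla markers summed to 355 and 309 CPM on the high-fat diet and 357 and 425 CPM on the normal diet, with Corin at 0. Most of that sum was Fbln1, at 259 and 237 CPM on the high-fat diet and 308 and 361 CPM on the normal diet. The other 8 of the 9 tested markers had positive log2 fold changes and the median of the 9 was 0.53. edgeR called 1 higher, Rspo3, at 3.92 and 2.74 CPM on the high-fat diet and 0.0969 and 0.104 CPM on the normal diet (edgeR adjusted p = 0.0496). With 33 and 23 counts on the high-fat diet and 1 in each normal diet library, Rspo3 entered the test through the high-fat diet libraries, which favours a positive value. The part of these markers in the values of Serpinf1, Serping1 and Serpine2 was not tested. The collagen chaperone gene Serpinh1 had 1666 and 1249 counts in the high-fat diet libraries and 1947 and 1614 in the normal diet libraries. Its diets overlapped at 173 ± 34.5 CPM on the high-fat diet and 179 ± 14.2 CPM on the normal diet (SD, n = 2), and its log2 fold change was -0.04 ± 0.15 (SE; edgeR adjusted p = 0.947).

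The proteases and partners of these inhibitors were read from the same fit, in which 1.12% of all genes were higher and 0.228% lower. Of 14 tested genes of plasminogen activation and coagulation, 1 was higher and 0 were lower. It was Anxa2, the cell-surface plasminogen receptor subunit annexin A2, at 589 and 561 CPM on the high-fat diet and 371 and 376 CPM on the normal diet (log2 fold change 0.62 ± 0.11, SE; edgeR adjusted p = 0.0259). Lrp1, the receptor that clears serpin complexes, and the thrombin receptor gene F2r stood at 0.46 ± 0.12 and 1.24 ± 0.35 (log2 fold change, SE) and were not called (edgeR adjusted p = 0.103 and 0.132). The median of the list was 0.56.

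Of 20 kallikreins and epithelial serine proteases, 1 was higher and 0 were lower, with a median of 0.58. The membrane protease gene Tmprss4 had 26.3 and 39.8 CPM on the high-fat diet and 7.94 and 12.5 CPM on the normal diet (log2 fold change 1.69 ± 0.30, SE; edgeR adjusted p = 0.0235). Klk7, the corneocyte-shedding protease inhibited by vaspin, had 58.5 and 53.9 CPM on the high-fat diet, against 34.8 and 35.8 CPM on the normal diet. Klk7 and Prss23 stood at 0.67 ± 0.17 and 0.94 ± 0.24 (log2 fold change, SE) and missed the threshold (edgeR adjusted p = 0.0884 and 0.0906). Of 12 tested serine protease inhibitors outside the family, 1 was higher and 0 were lower, with a median of 0.26. Spink5, which encodes the kallikrein inhibitor LEKTI of the cornified layer, had 83.8 and 94.3 CPM on the high-fat diet and 41.5 and 54.7 CPM on the normal diet (log2 fold change 0.89 ± 0.17, SE; edgeR adjusted p = 0.0332). Spint1, an inhibitor of matriptase, and Pebp1 had log2 fold changes of 0.70 ± 0.23 and -0.39 ± 0.21 (SE; edgeR adjusted p = 0.196 and 0.477).

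Among 13 granule and lysosomal proteases and caspases, 1 was higher and 0 were lower, with a median of 0.34. It was the cathepsin D gene Ctsd, at 133 and 114 CPM on the high-fat diet and 77.2 and 76.6 CPM on the normal diet (log2 fold change 0.68 ± 0.14, SE; edgeR adjusted p = 0.0413). Ctsc, which activates granule proteases, and Casp1 had log2 fold changes of 0.84 ± 0.27 and 0.55 ± 0.25 (SE; edgeR adjusted p = 0.203 and 0.365). Of 26 genes of collagen folding and collagens 0 were called by edgeR, with 4 at an unadjusted p under 0.05, near the 13.3% of all genes. DESeq2 and limma, with 389 and 2 calls over all genes, called 2 and 0 of these 26. Their median was -0.04, and Col16a1, Col17a1 and Col3a1 had the smallest p, with log2 fold changes of 0.80, 0.46 and 1.06 (edgeR adjusted p = 0.071, 0.115 and 0.168). Of 6 tested complement genes, the targets of the C1 inhibitor among them, 0 were called by edgeR, with 1 at an unadjusted p under 0.05 (13.3% of all genes), 1 called by DESeq2 and 0 by limma. C3 came closest, at 105 and 70.2 CPM on the high-fat diet and 43.6 and 50.4 CPM on the normal diet (log2 fold change 0.90 ± 0.20, SE; edgeR adjusted p = 0.0514), followed by C4b and C1s1 with adjusted p of 0.481 and 0.627. Of the 4 called genes of these lists, Tmprss4 alone was also called after scaling to equal sums of TPM, where Anxa2, Ctsd and Spink5 had edgeR adjusted p of 0.202, 0.244 and 0.103, and Ctsd was not called with library totals (edgeR adjusted p = 0.0683). With 1 library left out, Tmprss4 was called without the first high-fat diet library, and in the other cases none of the 4 was. Their log2 fold changes then lay between 0.59 and 0.66 for Anxa2, 0.57 and 0.79 for Ctsd, 0.71 and 1.1 for Spink5, and 1.36 and 2.05 for Tmprss4.

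Summed by clade, clade B stood at 517 and 512 CPM on the high-fat diet and 401 and 419 CPM on the normal diet (515 ± 3.62 and 410 ± 13, SD, n = 2), and the diets were separate. Clade H, the single gene Serpinh1, stood at 198 and 149 CPM on the high-fat diet, against 189 and 169 CPM on the normal diet. These overlapped. All members together summed to 822 and 734 CPM on the high-fat diet and 658 and 663 CPM on the normal diet.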

How the data were processed

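Hair follicle stem cell RNA-seq libraries, 2 per diet, were grouped by the diet in each title. HISAT2 2.0.1, cutadapt 1.9.1 and bcl2fastq 2.17.1.14 were used, per the submitters' processing notes. Which program counted reads, and whether by strand, is not given in the sources used here. Deposited by the authors were a raw count and an FPKM value per gene and library. All 221604 deposited FPKM values could be recomputed within 0.005 from counts, exonic size and column totals. Coordinates of all 64 members matched GENCODE M21 on GRCm38.

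Deposited counts were tested with edgeR 4.0.16 in R 4.3.3 (quasi-likelihood test, TMM factors 0.965 to 1.04, default filter by group with a minimum of 10 counts and 15 in total). Benjamini-Hochberg adjustment covered 14479 genes. The standard error is the log2 fold change divided by the square root of F. DESeq2 1.42.0, limma 3.58.1 on log2(FPKM + 1) and log2(FPKM + 0.1), other scalings and filters, a fit blocked on replicate number and fits without each single library were alternatives, and the fits were tested on simulated data. Members with a count are named, except 1 that is not reported here and is included in family counts and sums, those called or separate at a log2 fold change of at least 1 with full statistics, and of other lists the called genes and the smallest p up to 3. Members and lists were chosen with earlier results of these data known. Sequences are from RefSeq (GRCm38.p6), and shared 50-base stretches were counted in GENCODE transcripts on both strands.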

Additional observations from a re-analysis of the deposited data

How the results depend on the processing

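All-gene calls numbered 195, and 91 with equal sums of TPM, 633 without a count filter, 389 with DESeq2, 2 with either limma fit (pseudocounts 1 and 0.1), 419 with the replicate block, and between 0 and 83 with a library left out. Serpin calls numbered 2, and 3 with the block and without the filter (Serpinb10 added), 0 with either limma fit, and between 0 and 1 with a library left out. Partner list calls numbered 4, and 1 (Tmprss4) with equal sums of TPM, 13 without the filter, 9 with DESeq2, 0 with either limma fit, 8 with the block, and between 0 and 1 with a library left out. The excess of clade B in the high-fat diet was 104 CPM, and 76.7 with library totals and 82.3 with equal sums of TPM. The labels do not say that replicate numbers pair libraries. Deviations of same-numbered libraries from their diet means correlated at -0.00463 over 14479 genes.

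Of 309 reported member fold changes under alternatives, 280 kept their direction and side of the threshold, 17 reversed, 10 lost and 2 gained a call, and 15 members had no reversal against 9 with at least 1. The log2 fold change of Serpinb6a reversed to -0.06 with library totals and both limma fits and to -0.04 with equal sums of TPM. With a library left out, the ranges of members that reversed were -0.08 to 0.14 for Serpinb6a, -1.17 to 0.20 for Serpina9, -6.54 to 6.72 for Serpina3j, -1.06 to 1.76 for Serpina3n, -0.02 to 4.54 for Serpinb12, -0.34 to 0.02 for Serpinb8, -0.19 to 0.92 for Serpinb1a, -1.32 to 0.45 for Serpinb6b and -0.26 to 0.15 for Serpinh1. Leaving out the 3 serpins that passed the filter through the high-fat diet alone was chosen after seeing the data. The causes of these differences were not tested. With 2 libraries per diet, members with few counts could be measured only coarsely.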
